A study of Arabidopsis thaliana with 18 samples.

Results

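The genes described here had less RNA in roots of the rab8d-2 mutant than in wild type and more RNA again in each of 4 lines that carry a second mutation beside rab8d-2. Of the 25537 genes in the deposited table, 171 met this description. A member had a mean of at least 1 TPM (transcript abundance scaled for transcript length and library total) in wild type (WT). Its mean in rab8d-2, with 0.1 TPM added to each side, was at most 0.5 of that in WT. Its mean in each of the 4 double mutants, with the same addition, was at least 33% above that in rab8d-2. The TPM of rab8d-2 against WT and of each double mutant against rab8d-2 are thus the measured values the members were chosen by, and the members' values in those comparisons are given as a description, with no test.

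RNA was measured in roots of 4-day-old Arabidopsis thaliana seedlings, grown on 1% sucrose with 16 h light and 8 h dark and no other treatment named. The 6 genotypes with 3 libraries each were the double mutants of rab8d-2 with atm-2, with sog1-1, with nac044-1 and with nac085-1, then rab8d-2 itself and WT. All 4 double mutants carry rab8d-2, and no line with a second mutation alone is analysed here. The labels give 1 allele for each gene and call the libraries biological replications. They do not say whether the plants came from separate cultures, so p values measure the spread between these libraries. That spread was small. Over genes with many counts, the variance between paired libraries of a genotype was 1.36 to 2.28 times that of counting reads alone. Small differences can thus pass the test, and p values do not tell how far independent cultures would differ. Library totals lay between 20103600 and 20471200 estimated counts.

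RAB8D encodes the plastid form of the elongation factor EF-Tu, which brings aminoacyl-tRNAs to the ribosomes of plastids. In the DNA damage response of plants, the kinase ATM is activated by double-strand breaks and phosphorylates SOG1, a NAC transcription factor that switches on repair and cell cycle genes. NAC044 and NAC085 are close relatives of SOG1 that act after it in holding back the cell cycle.

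One label field calls the rab8d-2 libraries wild type, against their titles, and the titles were followed. RAB8D (AT4G20360) had a mean of 15.6 ± 0.410 TPM in atm-2 rab8d-2, 11.1 ± 1.79 in sog1-1 rab8d-2, 12.9 ± 1.24 in nac044-1 rab8d-2 and 13.5 ± 0.624 in nac085-1 rab8d-2. It had 10.1 ± 0.389 TPM in rab8d-2 and 77.0 ± 2.09 TPM in WT (SD, n = 3 each). NAC044 RNA was at 144.3 ± 3.19 TPM in the libraries labelled nac044-1 rab8d-2, against 17.6 ± 0.492 TPM in rab8d-2 and 4.51 ± 0.610 TPM in WT. ATM RNA was at 0.767 ± 0.0306 TPM in atm-2 rab8d-2, against 7.56 ± 0.431 TPM in rab8d-2 and 5.89 ± 0.240 TPM in WT. SOG1 RNA was at 20.9 ± 0.994 TPM in sog1-1 rab8d-2, against 18.8 ± 1.05 TPM in rab8d-2 and 22.0 ± 0.832 TPM in WT. NAC085 RNA was at 1.31 ± 0.598 TPM in nac085-1 rab8d-2, against 2.39 ± 0.620 TPM in rab8d-2 and 0.823 ± 0.201 TPM in WT, and the nac085-1 rab8d-2 libraries overlapped with both. Higher RNA goes against a loss of NAC044 transcript and does not check the allele, and every direction given below for nac044-1 rab8d-2 is that of the libraries so labelled. As markers of the root, 12 root hair genes summed to a mean of 467 TPM in rab8d-2 and 625 TPM in WT, and 12 endodermis genes to 706 TPM in rab8d-2 and 1042 TPM in WT. As markers of shoot tissue, 6 surface wax genes summed to 61.9 TPM in rab8d-2 and 14.0 TPM in WT. Their sums were 31.0, 24.8, 27.4 and 28.9 TPM in the double mutants with atm-2, sog1-1, nac044-1 and nac085-1. The other shoot list, 56 photosynthesis genes, went the other way, with 198 TPM in rab8d-2 and 604.5 TPM in WT. The part of shoot tissue in the differences was not tested.

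Of the 18871 genes with at least 1 TPM in WT, 881 met the condition on rab8d-2. Among these 881 genes the condition on the double mutant was met by 555 in atm-2 rab8d-2 (63%), 557 in sog1-1 rab8d-2 (63.2%), 321 in nac044-1 rab8d-2 (36.4%) and 577 in nac085-1 rab8d-2 (65.5%). The members are 19.4% of the lowered genes, another 257 genes met the condition in exactly 3 double mutants, and 115 met it in none. The line labelled nac044-1 rab8d-2 was thus the one in which the fewest lowered genes met it.

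The members were mostly of modest level in WT, with a median of 8.43 TPM against 20.3 TPM over all genes with at least 1 TPM in WT, and they ran up to 1421 TPM. Just inside the limit on rab8d-2 stood AT5G14880, a potassium transporter family gene with a ratio of 0.498, and just outside it stood IRX1, the secondary wall cellulose synthase CESA8, with 0.503. Just inside the limit on the double mutants stood PAL4, a phenylalanine ammonia-lyase of lignin and flavonoid synthesis, with a smallest ratio of 1.3301. Just outside it stood BLH3, a homeodomain gene, with 1.329. Nearest to the limit on the WT level stood CRR42 with 1.03 TPM inside it and AT1G16960 with 0.997 TPM outside it.

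**Figure D1:**
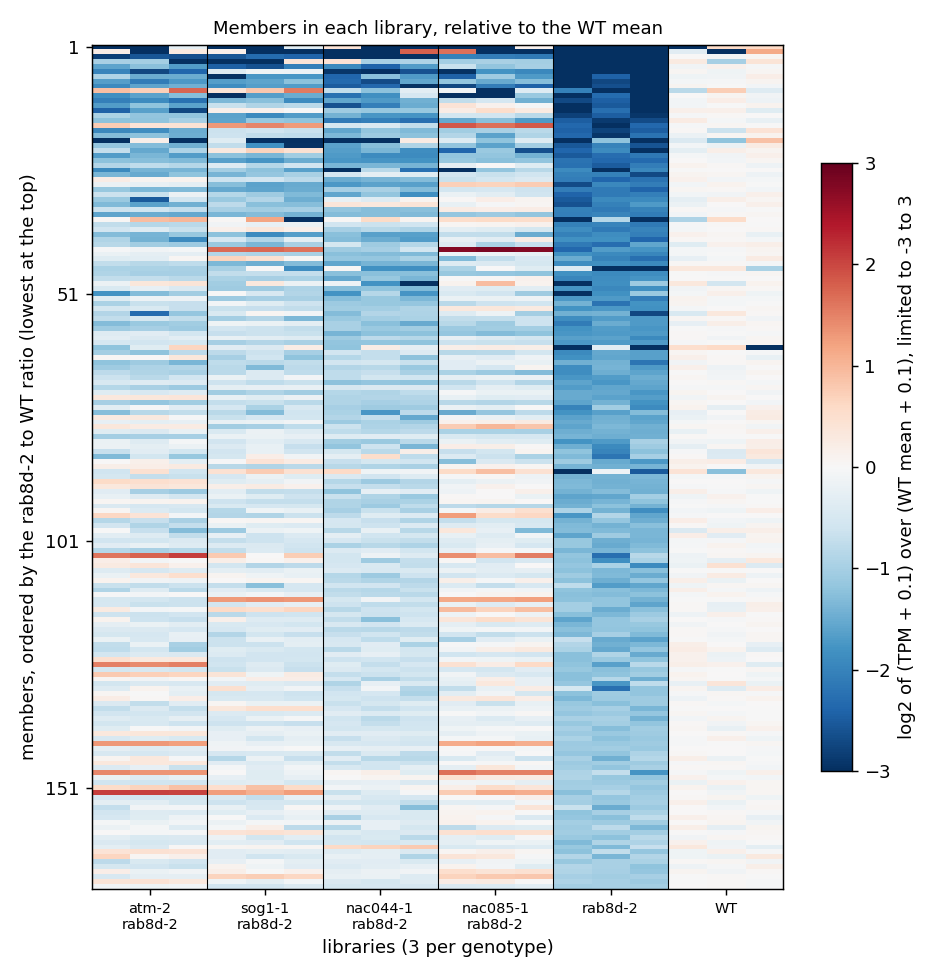
Each row is 1 of the 171 members, ordered by the ratio of rab8d-2 to WT with the lowest at the top, and each column is 1 of the 18 libraries. Colour gives log2 of the level in TPM plus 0.1 over the WT mean plus 0.1, limited to 3 in both directions. The rab8d-2 columns are blue by the rule. Rows at or above the WT mean, drawn white to red, number 33 in atm-2 rab8d-2, 27 in sog1-1 rab8d-2, 6 in nac044-1 rab8d-2 and 51 in nac085-1 rab8d-2.

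The return was partial for most members. Their median level was 72.1% of WT in atm-2 rab8d-2, 72.8% in sog1-1 rab8d-2, 60.9% in nac044-1 rab8d-2 and 84.6% in nac085-1 rab8d-2, against 36.4% in rab8d-2. The libraries of a genotype lay close together on this measure: between 70.1% and 73.1% in atm-2 rab8d-2, 70.4% and 72.8% in sog1-1 rab8d-2, 58.0% and 59.7% in nac044-1 rab8d-2, and 84.2% and 84.9% in nac085-1 rab8d-2. Expressed as the share of the difference between rab8d-2 and WT that was made up, the medians were 52.5% in atm-2 rab8d-2, 55.4% in sog1-1 rab8d-2, 35.2% in nac044-1 rab8d-2 and 75.3% in nac085-1 rab8d-2. The lowered genes outside the membership had medians of 52.8%, 51.4%, 43.4% and 54.1% of WT in the same order of double mutants, a difference that the rule itself makes.

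**Figure D2:**
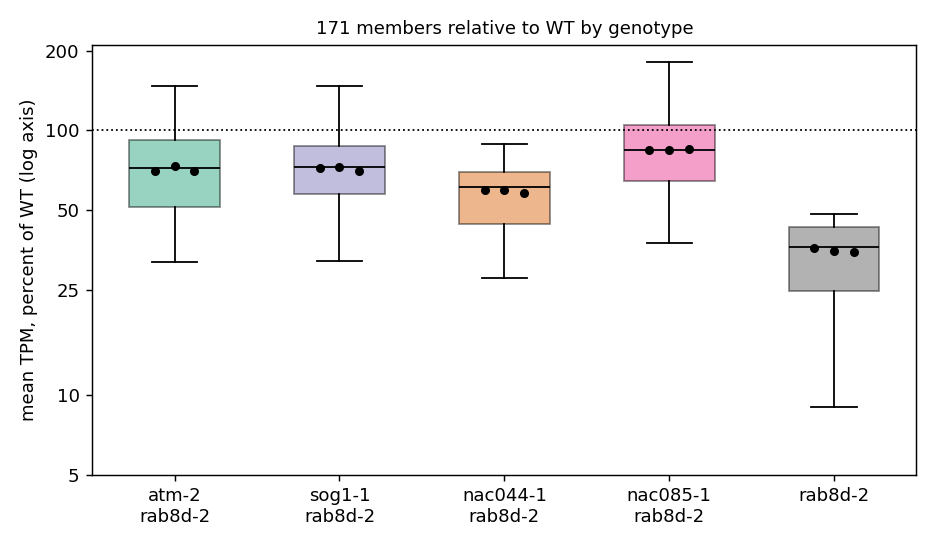
The mean level of the 171 members as a percent of WT is drawn on a log axis, with boxes at the quartiles, whiskers at the 5th and 95th percentiles and 1 black dot for each library's median. The median is 72.1% in atm-2 rab8d-2, 72.8% in sog1-1 rab8d-2, 60.9% in nac044-1 rab8d-2 and 84.6% in nac085-1 rab8d-2, and 36.4% in rab8d-2. Values beyond the whiskers are not drawn.

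A mean at or above that of WT was reached by 33 members in atm-2 rab8d-2, 27 in sog1-1 rab8d-2, 6 in nac044-1 rab8d-2 and 51 in nac085-1 rab8d-2. Over all genes with at least 1 TPM in WT, 54.1%, 44.3%, 57.8% and 54.8% had means at or above WT in the same order. No double mutant reached the WT mean for 97 members, 1 did for 40, and 2 did for 26. Of the 7 members with 3 double mutants at or above WT, FAF1 (a regulator of shoot meristem size), LECRKA4.2 (a lectin receptor kinase), LEA4-5, FRO5, CIPK19 (a calcium sensor-interacting kinase) and AT5G20790 had nac044-1 rab8d-2 as the double mutant below WT, and AT3G13500 had atm-2 rab8d-2. AT4G00883 was the single member with all 4 at or above WT, and it rests on 1 to 10 counts per genotype.

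Single libraries were compared as well. All 3 rab8d-2 libraries lay below all 3 WT libraries for 164 members, where 30.4% of all genes with at least 1 TPM in WT had this separation. All 3 libraries of the double mutant lay above all 3 rab8d-2 libraries for 153 members in atm-2 rab8d-2 (32.2% of all genes), 155 in sog1-1 rab8d-2 (22.6%), 138 in nac044-1 rab8d-2 (28.2%) and 155 in nac085-1 rab8d-2 (32.7%). These 5 separations follow from how the members were chosen. In 119 members all 5 were complete, and the other members met the rule on their means while at least 1 pair of groups overlapped. Below all WT libraries stood atm-2 rab8d-2 in 108 members (32.3% of all genes), sog1-1 rab8d-2 in 108 (34.9%), nac044-1 rab8d-2 in 146 (26.6%) and nac085-1 rab8d-2 in 80 (30.3%). Above all WT libraries stood atm-2 rab8d-2 in 19 members (38.9% of all genes), sog1-1 rab8d-2 in 13 (26.4%), nac044-1 rab8d-2 in 2 (37.5%) and nac085-1 rab8d-2 in 26 (37.7%).

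Which double mutant came back least differed from gene to gene. The smallest of the 4 ratios to rab8d-2 was that of atm-2 rab8d-2 for 40 members, sog1-1 rab8d-2 for 28, nac044-1 rab8d-2 for 94 and nac085-1 rab8d-2 for 9. The largest was that of atm-2 rab8d-2 for 40 members, sog1-1 rab8d-2 for 32, nac044-1 rab8d-2 for 12 and nac085-1 rab8d-2 for 87.

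The reference annotation gives a symbol to 92 members and none to 79, and 17 members are annotated as uncharacterized proteins. The members lie on all 5 nuclear chromosomes, with 41, 27, 32, 24 and 47 on chromosomes 1 to 5. Only 3 pairs of members are direct neighbours, the peptide genes CLE7 and CLE5, CLE5 and CLE6, and the reductase genes FRO4 and FRO5. No neighbouring run of members larger than the 3 CLE genes was found. Grouping by known role was done after the values were seen, so the groups that follow are descriptions. In whole roots, fewer cells of a type and less RNA per cell cannot be told apart.

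One role group was the secondary wall of xylem, the thick cellulose, xylan and lignin layer that water-conducting cells lay down before they die. Its 11 members had medians of 70.8% of WT in atm-2 rab8d-2, 72.8% in sog1-1 rab8d-2, 69.7% in nac044-1 rab8d-2 and 92.7% in nac085-1 rab8d-2, against 46.0% in rab8d-2. CESA4, a cellulose synthase of secondary walls, had 21.9, 22.2 and 21.7 TPM in atm-2 rab8d-2, 24.5, 23.6 and 24.6 TPM in sog1-1 rab8d-2, 25.9, 24.5 and 25.2 TPM in nac044-1 rab8d-2 and 32.3, 30.7 and 33.4 TPM in nac085-1 rab8d-2. It had 14.6, 15.2 and 14.6 TPM in rab8d-2 and 33.9, 31.5 and 32.2 TPM in WT. All double mutant libraries lay above those of rab8d-2, and the nac085-1 rab8d-2 libraries alone reached into the range of WT. CESA4 was 1.45-fold higher in nac085-1 rab8d-2 than in atm-2 rab8d-2 by edgeR's quasi-likelihood test (difference on the log2 scale 0.54 ± 0.04, adjusted p = 2.53e-17). Here and below, the value after ± on the log2 scale is a standard error computed back from the test statistic, not an SD.

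MYB46, a transcription factor that switches on secondary wall genes, had 7.35, 6.87 and 7.09 TPM in atm-2 rab8d-2, 7.99, 7.9 and 6.59 TPM in sog1-1 rab8d-2, 6.88, 6.73 and 7.23 TPM in nac044-1 rab8d-2 and 8.11, 9.12 and 8.7 TPM in nac085-1 rab8d-2. It had 3.93, 5.33 and 5.19 TPM in rab8d-2 and 10.9, 9.15 and 9.88 TPM in WT. The double mutants stood between rab8d-2 and WT with no overlap with either. MYB46 was higher in nac085-1 rab8d-2 than in atm-2 rab8d-2 (difference on the log2 scale 0.28 ± 0.11, adjusted p = 0.033) and than in nac044-1 rab8d-2 (0.32 ± 0.11, adjusted p = 0.013), while its other differences between double mutants did not pass the edgeR test. FLA11, a fasciclin-like arabinogalactan protein of secondary walls, averaged 23.2 ± 0.66 TPM in atm-2 rab8d-2, 24.8 ± 4.14 in sog1-1 rab8d-2, 25.5 ± 2.45 in nac044-1 rab8d-2 and 35.6 ± 2.17 in nac085-1 rab8d-2, against 16.3 ± 0.989 in rab8d-2 and 34.1 ± 2.42 in WT (SD, n = 3 each).

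Genes of xylan, the hemicellulose of these walls, were among the same 11 members. IRX9 and IRX14-L, which help to build the xylan backbone, were at 105% and 75.2% of WT in nac085-1 rab8d-2 and at 48.2% and 44.2% in rab8d-2. PGSIP3 (a glucuronosyltransferase of xylan), GXM3 (a methyltransferase of its glucuronic acid) and ESK1 (a xylan acetyltransferase) were at 95.6%, 101% and 80.3% of WT in nac085-1 rab8d-2 and at 46.035%, 37.1% and 46.2% in rab8d-2. IRX14-L had its highest level of the double mutants in sog1-1 rab8d-2, where it was at 93.3% of WT. The COBRA-like gene IRX6 was at 53.8% of WT in atm-2 rab8d-2 and 92.7% in nac085-1 rab8d-2, a difference that passed the edgeR test (difference on the log2 scale 0.79 ± 0.07, adjusted p = 7.12e-14). Of these 11 members, chosen after their values were seen, 8 were higher in nac085-1 rab8d-2 than in atm-2 rab8d-2 (24.3% of all genes tested) and none lower (24%). Against sog1-1 rab8d-2, 7 were higher in nac085-1 rab8d-2 (28% of all genes) and 1 lower (28.5%), and against nac044-1 rab8d-2, 9 were higher (29.3%) and none lower (29.1%). In sog1-1 rab8d-2 against atm-2 rab8d-2, 4 were higher (27.8% of all genes) and none lower (30%). In nac044-1 rab8d-2, 2 were higher (31.8%) and 2 lower (33.9%) than in atm-2 rab8d-2, and none was higher (26.1%) and 4 were lower (26.1%) than in sog1-1 rab8d-2.

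Xylem genes outside the membership were compared in the same way. A list of 20 xylem genes held 4 members (CESA4, IRX9, MYB46 and IRX6), and the 16 other genes were tested. In rab8d-2 against WT, 15 of the 16 were lower and none higher (median log2 fold change -0.83, against 0.00441 over all genes tested, of which 32.9% were called lower). Against rab8d-2, 9 of the 16 were higher in atm-2 rab8d-2, 16 in sog1-1 rab8d-2, 13 in nac044-1 rab8d-2 and 16 in nac085-1 rab8d-2, and none was lower in any of them. Over all genes tested, 31.7%, 28.7%, 24.3% and 31.8% were called higher in these comparisons in the same order, and 29.9%, 26%, 18.6% and 31.7% were called lower. Calls in either direction covered 61.6%, 54.6%, 42.9% and 63.5% of them, and 64.5% in rab8d-2 against WT. In nac044-1 rab8d-2 against rab8d-2 the share of called genes that were higher was 56.6%, and it was 44.5% with upper quartile scaling.

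Of these 16 genes, BFN1, a nuclease of dying xylem cells, and LAC17, a laccase of lignin formation, had the largest differences between rab8d-2 and WT. BFN1 averaged 10.3 TPM in atm-2 rab8d-2, 15.4 in sog1-1 rab8d-2, 13.8 in nac044-1 rab8d-2 and 18.1 in nac085-1 rab8d-2, against 10.5 in rab8d-2 and 23.9 in WT. It was lower in rab8d-2 than in WT (log2 fold change -1.24 ± 0.08, edgeR adjusted p = 1.71e-18) and missed the rule on atm-2 rab8d-2, whose level was not called different from that of rab8d-2 (log2 fold change -0.01, adjusted p = 0.923). LAC17 was lower in rab8d-2 than in WT (log2 fold change -1.13 ± 0.04, adjusted p = 1.71e-26) and had a smallest ratio of 1.16, again in atm-2 rab8d-2. CESA7 and CESA8, which form one complex with CESA4, had ratios of 0.510 and 0.503 of rab8d-2 over WT, just past the limit.

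**Figure D3:**
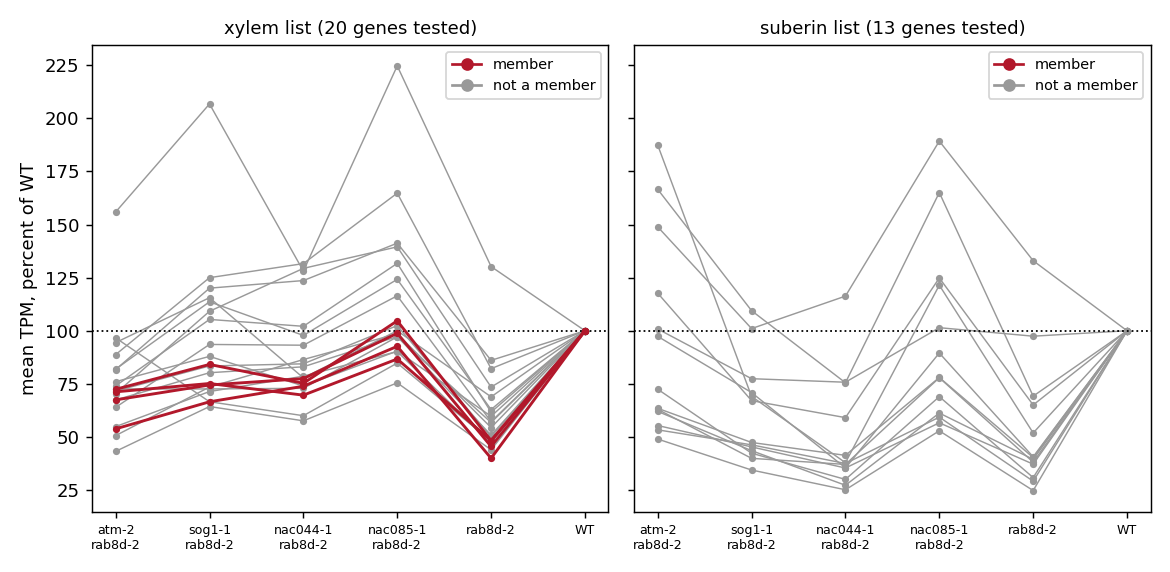
Mean TPM as a percent of WT for the 20 xylem genes and the 13 suberin genes tested, with 1 line for each gene across the 6 genotypes and members in red. Most xylem lines are lowest in rab8d-2 and highest among the mutants in nac085-1 rab8d-2, and no suberin gene is a member.

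Suberin genes, which make the waxy barrier of the endodermis, were also mostly lower in rab8d-2 but are not among the members. Of 13 suberin genes, 12 were lower and 1 higher in rab8d-2 than in WT (median log2 fold change -1.36) and 8 met the condition on rab8d-2. Against rab8d-2, 11 were higher and none lower in atm-2 rab8d-2, 10 higher and 2 lower in sog1-1 rab8d-2, 2 higher and 4 lower in nac044-1 rab8d-2, and 12 higher and none lower in nac085-1 rab8d-2. Photosynthesis genes gave 27 lowered genes of 56 and no member. Of the 46 tested against rab8d-2, 21 were higher and 7 lower in atm-2 rab8d-2 and 35 and 1 in sog1-1 rab8d-2. In nac044-1 rab8d-2 these numbers were 3 and 7, and in nac085-1 rab8d-2 they were 4 and 16. Phloem genes gave 4 lowered genes of 14 and no member. The lists of root hair, root cap and root meristem genes held no lowered gene.

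Transporters of sugars and amino acids gave 5 members. UMAMIT17, of a family of amino acid transporters, had the lowest ratio of rab8d-2 to WT among the members that passed the count filter. It had 1.89, 2.29 and 2.19 TPM in atm-2 rab8d-2, 2.29, 2.75 and 2.59 TPM in sog1-1 rab8d-2, 1.37, 1.26 and 1.25 TPM in nac044-1 rab8d-2 and 3.41, 3.26 and 3.18 TPM in nac085-1 rab8d-2. The gene had 0.56, 0.56 and 0.35 TPM in rab8d-2 and 14.2, 13.5 and 14.6 TPM in WT. All double mutant libraries lay above rab8d-2 and far below WT, so that the line that came back most, nac085-1 rab8d-2, was at 23.3% of WT. UMAMIT17 was lower in nac044-1 rab8d-2 than in sog1-1 rab8d-2 by edgeR (difference on the log2 scale -1.05 ± 0.18, adjusted p = 3.73e-06). Of 31 UMAMIT genes with at least 1 TPM in WT, 9 were lowered, beside 881 of all 18871 genes at that level. UMAMIT10 was the other member with that symbol. SIAR1, an amino acid transporter of the same family, averaged 199 ± 0.689 TPM in atm-2 rab8d-2, 125 ± 5.01 in sog1-1 rab8d-2, 102 ± 4.82 in nac044-1 rab8d-2 and 161 ± 2.96 in nac085-1 rab8d-2, against 76.1 ± 1.49 in rab8d-2 and 159.9 ± 6.08 in WT (SD, n = 3 each). The atm-2 rab8d-2 libraries lay above all WT libraries for SIAR1, and the nac085-1 rab8d-2 libraries overlapped with them.

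SWEET3, of the SWEET family of sugar transporters, had 2.39, 1.38 and 1.78 TPM in atm-2 rab8d-2, 7.39, 8.88 and 8.74 TPM in sog1-1 rab8d-2, 1.19, 0.95 and 1.5 TPM in nac044-1 rab8d-2 and 1.15, 2.74 and 2.44 TPM in nac085-1 rab8d-2. It had 0.85, 0.7 and 1.07 TPM in rab8d-2 and 10.01, 8.89 and 10.1 TPM in WT. The sog1-1 rab8d-2 libraries came close to those of WT, the other double mutants were nearer to rab8d-2, and nac044-1 rab8d-2 overlapped with rab8d-2. SWEET3 was 4.71-fold higher in sog1-1 rab8d-2 than in atm-2 rab8d-2 by edgeR (difference on the log2 scale 2.23 ± 0.18, adjusted p = 8.54e-15) and 7.2-fold lower in nac044-1 rab8d-2 than in sog1-1 rab8d-2 (-2.85 ± 0.20, adjusted p = 1.7e-16). Of 7 SWEET genes with at least 1 TPM in WT 5 were lowered, and SWEET3 was the single member. AAP4, an amino acid permease, was at 79.6% of WT in atm-2 rab8d-2, 95.3% in sog1-1 rab8d-2, 83.8% in nac044-1 rab8d-2 and 98.9% in nac085-1 rab8d-2, against 47.1% in rab8d-2.

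Mineral and water transport gave 9 members. TIP2;2, a water channel of the vacuole membrane and the most abundant member, had 674, 713 and 668 TPM in atm-2 rab8d-2, 954, 911 and 857 TPM in sog1-1 rab8d-2, 719.9, 654 and 684 TPM in nac044-1 rab8d-2 and 669.5, 695 and 699 TPM in nac085-1 rab8d-2. It had 413, 446 and 424 TPM in rab8d-2 and 1418, 1390.3 and 1455 TPM in WT. Every double mutant library lay between those of rab8d-2 and WT, with sog1-1 rab8d-2 above the others. TIP2;2 was higher in sog1-1 rab8d-2 than in atm-2 rab8d-2 by edgeR (difference on the log2 scale 0.47 ± 0.03, adjusted p = 2.23e-18), and the differences among atm-2, nac044-1 and nac085-1 rab8d-2 did not pass that test.

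Copper and iron uptake genes ranged widely between double mutants. FRO5, of the root surface reductases for copper and iron, had 4.1, 3.18 and 3.24 TPM in atm-2 rab8d-2, 5.97, 6.71 and 5.88 TPM in sog1-1 rab8d-2, 1.61, 1.73 and 1.39 TPM in nac044-1 rab8d-2 and 8.96, 7.67 and 8.74 TPM in nac085-1 rab8d-2. It had 0.38, 0.19 and 0.38 TPM in rab8d-2 and 2.31, 2.46 and 2.35 TPM in WT. The atm-2, sog1-1 and nac085-1 rab8d-2 libraries lay above all WT libraries, and nac044-1 rab8d-2 lay between rab8d-2 and WT. FRO5 was 5.33-fold higher in nac085-1 rab8d-2 than in nac044-1 rab8d-2 by edgeR (difference on the log2 scale 2.42 ± 0.12, adjusted p = 4.53e-23). Its neighbour FRO4 was also higher in that comparison (1.23 ± 0.05, adjusted p = 1.23e-26). COPT2, a copper uptake transporter, averaged 43.7 ± 1.76 TPM in atm-2 rab8d-2, 51.7 ± 8.37 in sog1-1 rab8d-2, 30.003 ± 0.336 in nac044-1 rab8d-2 and 68.3 ± 9.56 in nac085-1 rab8d-2, against 16.2 ± 2.32 in rab8d-2 and 78.2 ± 7.1 in WT (SD, n = 3 each). COPT2 was higher in nac085-1 rab8d-2 than in nac044-1 rab8d-2 as well (difference on the log2 scale 1.199 ± 0.10, adjusted p = 5.99e-15).

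PHO1;H1, of the PHO1 family that loads phosphate into the xylem, was at 74.2% of WT in atm-2 rab8d-2, 62.7% in sog1-1 rab8d-2, 40.7% in nac044-1 rab8d-2 and 42.4% in nac085-1 rab8d-2, against 29.8% in rab8d-2. SULTR3;5, of the sulfate transporter family, was at 127%, 83.9%, 53.4% and 80.4% of WT in the double mutants in the same order, against 32.3% in rab8d-2. For PHO1;H1 the difference of nac085-1 rab8d-2 from nac044-1 rab8d-2 did not pass the edgeR test (log2 fold change 0.06, adjusted p = 0.501). The molybdate transporter MOT1 and the boric acid channel NIP6;1 were at 108% and 117% of WT in sog1-1 rab8d-2, against 38.3% and 36.1% in rab8d-2.

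Signalling peptides and hormone genes gave 8 members, 3 of them the neighbours CLE7, CLE5 and CLE6, whose short peptides act on receptor kinases. CLE5 had 5.56, 6.92 and 5.14 TPM in atm-2 rab8d-2, 3.01, 2.64 and 3.95 TPM in sog1-1 rab8d-2, 4.38, 3.08 and 5.22 TPM in nac044-1 rab8d-2 and 10.5, 7.37 and 8.31 TPM in nac085-1 rab8d-2. It had 1.76, 1.59 and 1.1 TPM in rab8d-2 and 15.5, 18.4 and 16.4 TPM in WT. The double mutants lay between rab8d-2 and WT without overlap. CLE5 was higher in nac085-1 rab8d-2 than in sog1-1 rab8d-2 by edgeR (difference on the log2 scale 1.38 ± 0.21, adjusted p = 1.92e-07). CLE6 was at 85.5%, 64.3%, 48.1% and 89.7% of WT in the double mutants in the order of atm-2, sog1-1, nac044-1 and nac085-1, against 33.1% in rab8d-2.

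CLE7 took another order, but at very low levels. It had 3.01, 2.65 and 5.49 TPM in atm-2 rab8d-2, 2.09, 2.86 and 4.8 TPM in sog1-1 rab8d-2, 0.91, 0.61 and 1.24 TPM in nac044-1 rab8d-2 and 1.47, 0 and 1.19 TPM in nac085-1 rab8d-2. It had 0.31, 0 and 0 TPM in rab8d-2 and 0.86, 2.69 and 1.18 TPM in WT. Its WT libraries overlapped with those of every double mutant, and 1 nac085-1 rab8d-2 library and 2 rab8d-2 libraries were listed at 0. CLE7 had at least 10 estimated counts in all 3 libraries of no double mutant, and no test is given for it. LOG5, a cytokinin-activating enzyme, was at 37.9% of WT in atm-2 rab8d-2, 43.8% in sog1-1 rab8d-2, 76.5% in nac044-1 rab8d-2 and 64.9% in nac085-1 rab8d-2, against 20.012% in rab8d-2. It was one of the few members higher in nac044-1 rab8d-2 than in sog1-1 rab8d-2 (difference on the log2 scale 0.75 ± 0.18, adjusted p = 0.000397). PYL3, an abscisic acid receptor, and BEE3, a brassinosteroid-induced bHLH factor, were at 54.2% and 27.1% of WT in nac085-1 rab8d-2 and at 9.39% and 4.09% in rab8d-2. These percents rest on few counts. In rab8d-2, PYL3 had 4, 5 and 0 estimated counts and BEE3 had 0, 2 and 0. In nac085-1 rab8d-2, BEE3 had 2, 7 and 4.

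The 16 transcription factors among the members had medians of 79.1% of WT in atm-2 rab8d-2, 74.1% in sog1-1 rab8d-2, 68.7% in nac044-1 rab8d-2 and 85.5% in nac085-1 rab8d-2, against 39.5% in rab8d-2. AGL42, a MADS-box gene expressed around the root stem cells, had 2.48, 3.44 and 2.57 TPM in atm-2 rab8d-2, 5.04, 4.26 and 4.55 TPM in sog1-1 rab8d-2, 1.24, 1.89 and 2.84 TPM in nac044-1 rab8d-2 and 10.9, 8.88 and 7.79 TPM in nac085-1 rab8d-2. It had 0.86, 1.32 and 0.85 TPM in rab8d-2 and 7.58, 8.01 and 8.67 TPM in WT. The nac085-1 rab8d-2 libraries overlapped with those of WT, and nac044-1 rab8d-2 overlapped with rab8d-2. AGL42 was 4.6-fold higher in nac085-1 rab8d-2 than in nac044-1 rab8d-2 by edgeR (difference on the log2 scale 2.202 ± 0.17, adjusted p = 3.45e-16). AGL44 (ANR1), a MADS-box gene of the root nitrate response, averaged 0.943 ± 0.283 TPM in atm-2 rab8d-2, 2.86 ± 0.383 in sog1-1 rab8d-2, 0.59 ± 0.121 in nac044-1 rab8d-2 and 0.477 ± 0.351 in nac085-1 rab8d-2, against 0.313 ± 0.155 in rab8d-2 and 2.02 ± 0.335 in WT (SD, n = 3 each). The sog1-1 rab8d-2 libraries lay above WT, with 32, 42 and 36 estimated counts, and those of nac085-1 rab8d-2 had 4, 11 and 3. AGL44 had at least 10 estimated counts in all 3 libraries of 1 double mutant only, and no test is given for it.

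MYR1, a MYB-related factor, had 11.04, 10.3 and 11.04 TPM in atm-2 rab8d-2, 2.5, 2.89 and 2.39 TPM in sog1-1 rab8d-2, 2.93, 2.28 and 2.66 TPM in nac044-1 rab8d-2 and 5.26, 4.48 and 5.83 TPM in nac085-1 rab8d-2. It had 1.59, 1.17 and 2.12 TPM in rab8d-2 and 4.34, 4.15 and 2.96 TPM in WT. The atm-2 and nac085-1 rab8d-2 libraries lay above all WT libraries, and those of sog1-1 and nac044-1 rab8d-2 lay below them. MYR1 was 3.82-fold lower in sog1-1 rab8d-2 than in atm-2 rab8d-2 by edgeR (difference on the log2 scale -1.93 ± 0.13, adjusted p = 1.68e-17). AT5G19970, annotated as a GRAS family transcription factor, also had its atm-2 and nac085-1 rab8d-2 libraries above WT and the other double mutants below it, with 29.967 ± 0.864 TPM in atm-2 rab8d-2, 10.7 ± 0.436 in sog1-1 rab8d-2, 8.54 ± 0.308 in nac044-1 rab8d-2 and 27.1 ± 1.26 in nac085-1 rab8d-2, against 5.73 ± 0.0755 in rab8d-2 and 12.3 ± 0.461 in WT (SD, n = 3 each). NAC6, a NAC factor of leaf ageing, HB21, a homeodomain gene, and BLH6, a BEL1-like homeodomain gene, had levels of 63.8%, 70.6% and 71.3% of WT in nac044-1 rab8d-2 and 78.8%, 84.2% and 77.3% in nac085-1 rab8d-2.

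Plastid genes among the members were few. GLK2, a factor that promotes chloroplast genes, had 13.9, 12.6 and 12.8 TPM in atm-2 rab8d-2, 7.7, 7.98 and 6.91 TPM in sog1-1 rab8d-2, 4.21, 4.51 and 4.82 TPM in nac044-1 rab8d-2 and 7.5, 8.17 and 8.87 TPM in nac085-1 rab8d-2. It had 2.78, 2.2 and 2.48 TPM in rab8d-2 and 13.1, 11.3 and 11.4 TPM in WT. All double mutant libraries lay above rab8d-2, and those of atm-2 rab8d-2 overlapped with WT. GLK2 was lower in nac044-1 rab8d-2 than in atm-2 rab8d-2 by edgeR (difference on the log2 scale -1.54 ± 0.10, adjusted p = 3.76e-19). CRD1, a cyclase of chlorophyll synthesis and the one member of a list of 15 chlorophyll genes, had 3.88 ± 0.636 TPM in atm-2 rab8d-2, 3.61 ± 0.279 in sog1-1 rab8d-2, 1.97 ± 0.426 in nac044-1 rab8d-2 and 2.26 ± 0.523 in nac085-1 rab8d-2, against 1.31 ± 0.517 in rab8d-2 and 12.2 ± 0.668 in WT (SD, n = 3 each). CRD1 was far below WT in every line, and its nac044-1 and nac085-1 rab8d-2 libraries overlapped with rab8d-2. PGR5, a protein of cyclic electron flow, stood above WT in atm-2 rab8d-2, at 165%, and at 63.964% in nac044-1 rab8d-2. Summed levels of the clock genes that peak at dawn were higher in atm-2 and sog1-1 rab8d-2, with means of 125.3 TPM in atm-2 rab8d-2, 99.3 in sog1-1 rab8d-2, 52.4 in nac044-1 rab8d-2 and 47.5 in nac085-1 rab8d-2, against 41.5 in rab8d-2 and 48.6 in WT. Clock genes that peak at dusk summed to lower means in the same lines, with 314 TPM in atm-2 rab8d-2 and 278 in sog1-1 rab8d-2. They summed to 875 TPM in nac044-1 rab8d-2, 937 in nac085-1 rab8d-2, 836 in rab8d-2 and 1005 in WT. The part of the clock genes in the differences of plastid genes and of other members was not tested.

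Genes of low oxygen and fermentation gave 3 members. ADH1, the alcohol dehydrogenase of fermentation, had 10.5, 9.99 and 10.3 TPM in atm-2 rab8d-2, 34.9, 35.8 and 33.2 TPM in sog1-1 rab8d-2, 5.1, 5.33 and 7.31 TPM in nac044-1 rab8d-2 and 73.2, 76.3 and 73.4 TPM in nac085-1 rab8d-2. It had 2.02, 3.29 and 3.1 TPM in rab8d-2 and 10.3, 10.5 and 11.4 TPM in WT. The sog1-1 and nac085-1 rab8d-2 libraries lay far above all WT libraries, atm-2 rab8d-2 overlapped with WT, and nac044-1 rab8d-2 lay between rab8d-2 and WT. ADH1 was 12.6-fold higher in nac085-1 rab8d-2 than in nac044-1 rab8d-2 by edgeR (difference on the log2 scale 3.65 ± 0.07, adjusted p = 1.15e-39) and 7.2-fold higher than in atm-2 rab8d-2 (2.85 ± 0.06, adjusted p = 3.29e-36).

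The same pair of lines led in other members of this kind. AT5G15120, annotated as a putative 2-aminoethanethiol dioxygenase, had 6.69, 6.56 and 6.14 TPM in atm-2 rab8d-2, 23.6, 24.8 and 23.9 TPM in sog1-1 rab8d-2, 6.71, 9 and 6.54 TPM in nac044-1 rab8d-2 and 21.6, 21.9 and 22.7 TPM in nac085-1 rab8d-2. It had 4.1, 4.24 and 3.58 TPM in rab8d-2 and 9.66, 9.57 and 9.86 TPM in WT. The sog1-1 and nac085-1 rab8d-2 libraries lay above all WT libraries, and the other double mutants lay between rab8d-2 and WT. It was 3.9-fold higher in sog1-1 rab8d-2 than in atm-2 rab8d-2 by edgeR (difference on the log2 scale 1.96 ± 0.08, adjusted p = 8.87e-26). SUS4, a sucrose synthase induced by low oxygen, was at 78.7% of WT in atm-2 rab8d-2, 161% in sog1-1 rab8d-2, 82.8% in nac044-1 rab8d-2 and 169.6% in nac085-1 rab8d-2, against 48.9% in rab8d-2. Outside this role group, the uncharacterized AT1G33055 was 6.47-fold higher in nac085-1 rab8d-2 than in atm-2 rab8d-2 by edgeR (difference on the log2 scale 2.69 ± 0.25, adjusted p = 4.79e-13). That fold rests on few counts in atm-2 rab8d-2, with 8, 15 and 6 estimated counts there and 58, 71 and 59 in nac085-1 rab8d-2.

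Stress and starvation proteins took several orders. LEA4-5, a dehydration protein, had 23.02, 22.5 and 22.03 TPM in atm-2 rab8d-2, 12.98, 11.4 and 12.8 TPM in sog1-1 rab8d-2, 3.31, 4.05 and 5.22 TPM in nac044-1 rab8d-2 and 9.21, 12.1 and 11.5 TPM in nac085-1 rab8d-2. It had 2.19, 2.92 and 2.46 TPM in rab8d-2 and 5.44, 5 and 5.62 TPM in WT. The atm-2, sog1-1 and nac085-1 rab8d-2 libraries lay above all WT libraries, and nac044-1 rab8d-2 overlapped with WT. LEA4-5 was 5.37-fold lower in nac044-1 rab8d-2 than in atm-2 rab8d-2 by edgeR (difference on the log2 scale -2.43 ± 0.13, adjusted p = 4.71e-22). CYSA, a cystatin that inhibits proteases, averaged 35.007 ± 1.55 TPM in atm-2 rab8d-2, 12.2 ± 1.6 in sog1-1 rab8d-2, 13.4 ± 2.49 in nac044-1 rab8d-2 and 40.1 ± 2.42 in nac085-1 rab8d-2, against 6.41 ± 2.23 in rab8d-2 and 13.5 ± 1.46 in WT (SD, n = 3 each). CYSA was 3.15-fold higher in nac085-1 rab8d-2 than in sog1-1 rab8d-2 (1.65 ± 0.12, adjusted p = 2.64e-16).

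Lists of cold, jasmonate and touch genes also set atm-2 and nac085-1 rab8d-2 apart from the other genotypes, as MYR1, AT5G19970 and CYSA did. Summed over 6 cold genes, the mean was 2928 TPM in atm-2 rab8d-2, 1729 in sog1-1 rab8d-2, 1683 in nac044-1 rab8d-2 and 3331 in nac085-1 rab8d-2, against 1164.5 in rab8d-2 and 1264 in WT. Summed over 14 jasmonate genes it was 398 TPM in atm-2 rab8d-2, 2249.8 in sog1-1 rab8d-2, 2843 in nac044-1 rab8d-2 and 525 in nac085-1 rab8d-2, against 2383 in rab8d-2 and 2287 in WT. Summed over 5 touch genes it was 230.5 TPM in atm-2 rab8d-2, 865 in sog1-1 rab8d-2, 1008 in nac044-1 rab8d-2 and 245 in nac085-1 rab8d-2, against 1166.5 in rab8d-2 and 1460.2 in WT. None of these lists holds a member, and their part in the differences between double mutants was not tested.

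Among other starvation and stress members, LSU1 and HSP17.4 ran against the general order, while AT5G03545 was highest in nac085-1 rab8d-2, as many members were. LSU1, a gene of the low-sulfur response, had 3.56, 2.91 and 3.27 TPM in atm-2 rab8d-2, 5.25, 3.78 and 3.7 TPM in sog1-1 rab8d-2, 11.7, 11.4 and 11.9 TPM in nac044-1 rab8d-2 and 7.83, 8.94 and 9.51 TPM in nac085-1 rab8d-2. It had 1.4, 2.17 and 2.72 TPM in rab8d-2 and 8.01, 9.13 and 10.2 TPM in WT. It stood above all WT libraries in nac044-1 rab8d-2 and below them in atm-2 and sog1-1 rab8d-2. LSU1 was 3.47-fold higher in nac044-1 rab8d-2 than in atm-2 rab8d-2 by edgeR (difference on the log2 scale 1.79 ± 0.19, adjusted p = 9.69e-12). HSP17.4, a small heat shock protein, was also highest in nac044-1 rab8d-2, with 17.2 ± 1.21 TPM, and was lower in nac085-1 rab8d-2, with 7.87 ± 0.214 TPM (difference on the log2 scale -1.11 ± 0.15, adjusted p = 5.98e-09). AT5G03545, annotated as expressed in phosphate starvation, averaged 172 ± 7.38 TPM in atm-2 rab8d-2, 265 ± 10.2 in sog1-1 rab8d-2, 195 ± 5.2 in nac044-1 rab8d-2 and 318 ± 5.57 in nac085-1 rab8d-2, against 72.6 ± 3.52 in rab8d-2 and 298 ± 6.25 in WT (SD, n = 3 each).

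Enzymes of terpenes, detoxification and cytochrome P450 type gave 10 members, with medians of 67.2% of WT in atm-2 rab8d-2, 63.0% in sog1-1 rab8d-2, 53.7% in nac044-1 rab8d-2 and 74.4% in nac085-1 rab8d-2, against 32.1% in rab8d-2. Of 4 lowered glutathione transferases 3 are members, GSTU16, GSTU18 and GSTU23, at 45.7%, 69.7% and 93.7% of WT in nac085-1 rab8d-2. Of 21 lowered cytochrome P450 genes 4 are members, CYP78A6, CYP78A8, CYP89A7 and CYP96A14P. CYP78A6, of a family that promotes organ growth, was at 25.6% of WT in atm-2 rab8d-2, 33.4% in sog1-1 rab8d-2, 19.9% in nac044-1 rab8d-2 and 37.7% in nac085-1 rab8d-2, against 7.67% in rab8d-2. The terpene synthase loci AT3G25820 and AT3G25830 share 1 symbol and are near-identical copies, so the split of reads between them is uncertain. Counted by symbol, WRKY, ERF and ABC transporter genes were lowered in 4, 2 and 6 cases and gave no member. Genes of a family without its symbol were not counted.

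**Figure D4:**
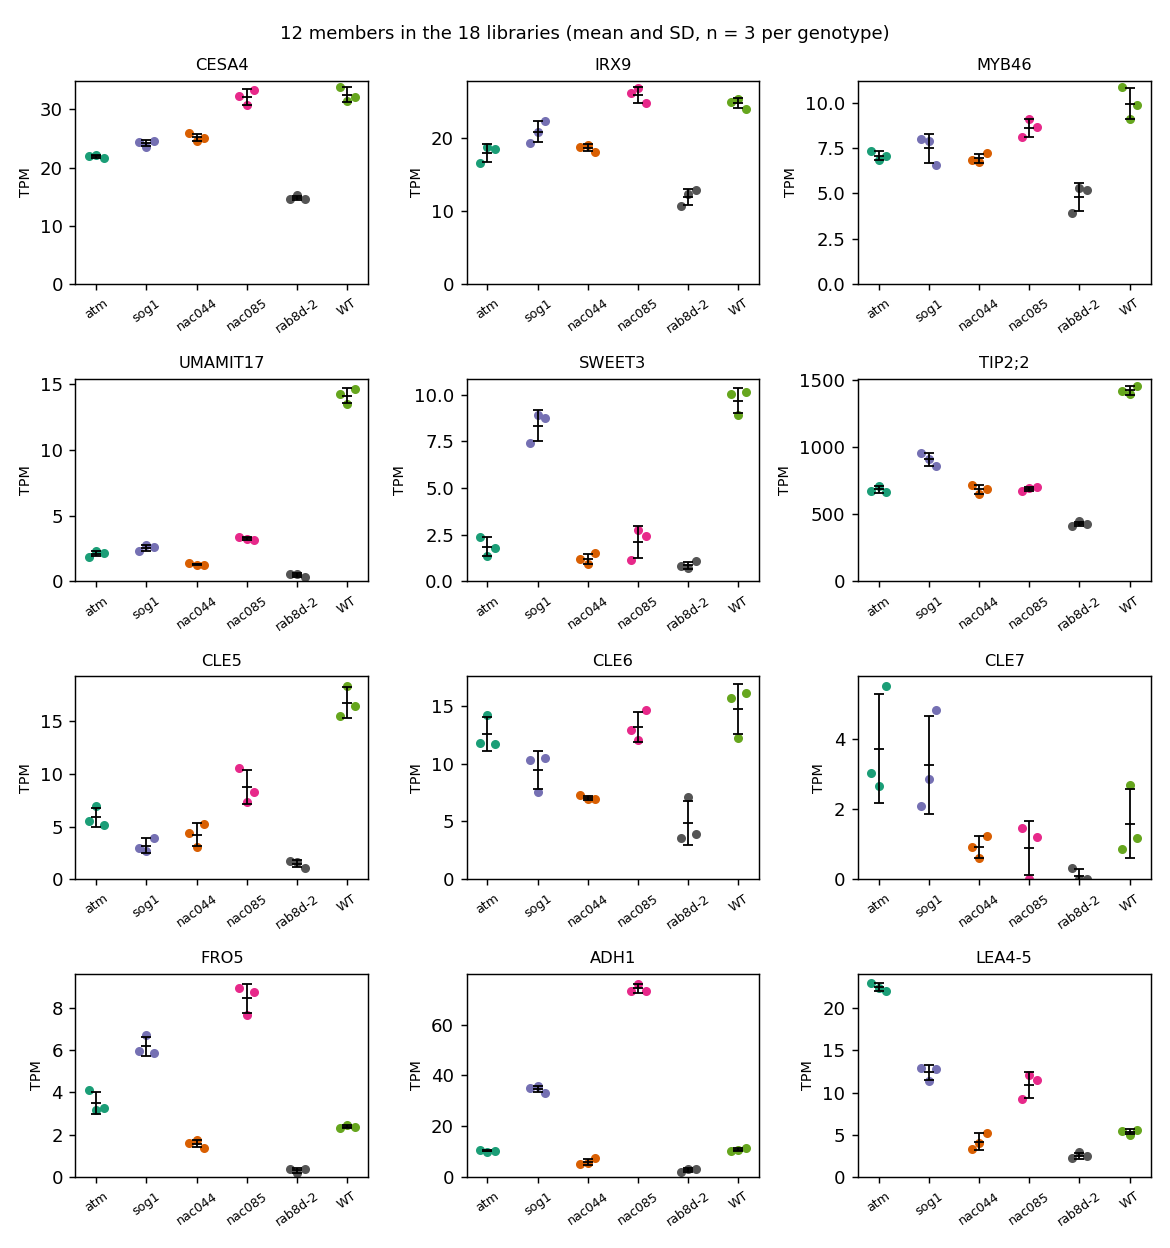
Level in TPM of 12 members in the 18 libraries, with 1 point for each library and bars for the mean and SD of the 3 libraries of a genotype. Axes start at 0. CESA4, IRX9 and MYB46 stand between rab8d-2 and WT in most double mutants, UMAMIT17 stays low in all of them, SWEET3 is near WT in sog1-1 rab8d-2, and ADH1 and FRO5 exceed WT in the sog1-1 and nac085-1 double mutants.

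The most abundant members beside TIP2;2 and SIAR1 returned to different extents. LCR68, of the plant defensin type, averaged 201 ± 39.2 TPM in atm-2 rab8d-2, 239 ± 14.3 in sog1-1 rab8d-2, 189 ± 12.3 in nac044-1 rab8d-2 and 303 ± 4.8 in nac085-1 rab8d-2, against 134 ± 6.51 in rab8d-2 and 323 ± 38.2 in WT (SD, n = 3 each). The mannose-binding lectin family gene AT1G52060 was at 49.7% of WT in atm-2 rab8d-2 and 86.1% in sog1-1 rab8d-2, and the uncharacterized AT2G37750 at 58.4% and 38.8%. BGAL4, a beta-galactosidase, was at 68.7% of WT in atm-2 rab8d-2 and 43.6% in nac044-1 rab8d-2, against 30.6% in rab8d-2. AT4G00670, of the remorin family, had means above WT in nac044-1 and nac085-1 rab8d-2, at 104% and 126%. Its estimated counts in nac044-1 rab8d-2, 574, 604 and 600, lay within the range of WT, with 666, 563 and 558.

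The double mutants were then compared with one another in 6 comparisons, by edgeR's quasi-likelihood test with Benjamini-Hochberg adjustment over 19981 genes. The rule did not use these comparisons, but it drew on the same libraries, so the differences are not free of it. It set the same lower limit on each double mutant. Of the lowered genes, 36.4% met it in nac044-1 rab8d-2 and 63% to 65.5% in the other double mutants. Lowered genes outside the membership also had their lowest median in nac044-1 rab8d-2, 43.4% of WT against 51.4% to 54.1%. Of the members, 163 passed the filter on low counts and 8 did not. The filter keeps a gene through any genotype in which it is high enough, WT included, and 144 of the 163 had at least 10 estimated counts in every library of all 4 double mutants.

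More members were lower than higher in nac044-1 rab8d-2 against each other double mutant. In nac044-1 rab8d-2 against atm-2 rab8d-2, 17 were higher (31.8% of all genes tested) and 79 lower (33.9%), with a median log2 fold change of -0.36. In nac044-1 rab8d-2 against sog1-1 rab8d-2, 5 were higher (26.1% of all genes) and 91 lower (26.1%), with a median of -0.34. In nac085-1 rab8d-2 against nac044-1 rab8d-2, 110 were higher (29.3% of all genes) and 3 lower (29.1%), with a median of 0.49. The median over all genes tested lay between -0.02 and 0.01 in the 6 comparisons.

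Members stood higher in nac085-1 rab8d-2 than in atm-2 rab8d-2 in 68 cases (24.3% of all genes) and lower in 32 (24%), with a median of 0.23. Against sog1-1 rab8d-2, 65 were higher in nac085-1 rab8d-2 (28% of all genes) and 28 lower (28.5%), with a median of 0.17. The comparison of sog1-1 with atm-2 rab8d-2 had the most even split, with 51 members higher in sog1-1 rab8d-2 (27.8% of all genes) and 41 lower (30%), and a median of 0.12. In total 92 members were called in that comparison, or 56.4% of those tested, beside 57.8% of all genes. Calls in either direction covered 58.9%, 61.3%, 58.9%, 57.1% and 69.3% of the members in the comparisons of nac044-1 with atm-2, nac085-1 with atm-2, nac044-1 with sog1-1, nac085-1 with sog1-1 and nac085-1 with nac044-1, beside 65.8%, 48.3%, 52.2%, 56.5% and 58.5% of all genes. The share of members called was below that of all genes in the comparisons of sog1-1 with atm-2 and of nac044-1 with atm-2, and above it in the other 4.

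**Figure D5:**
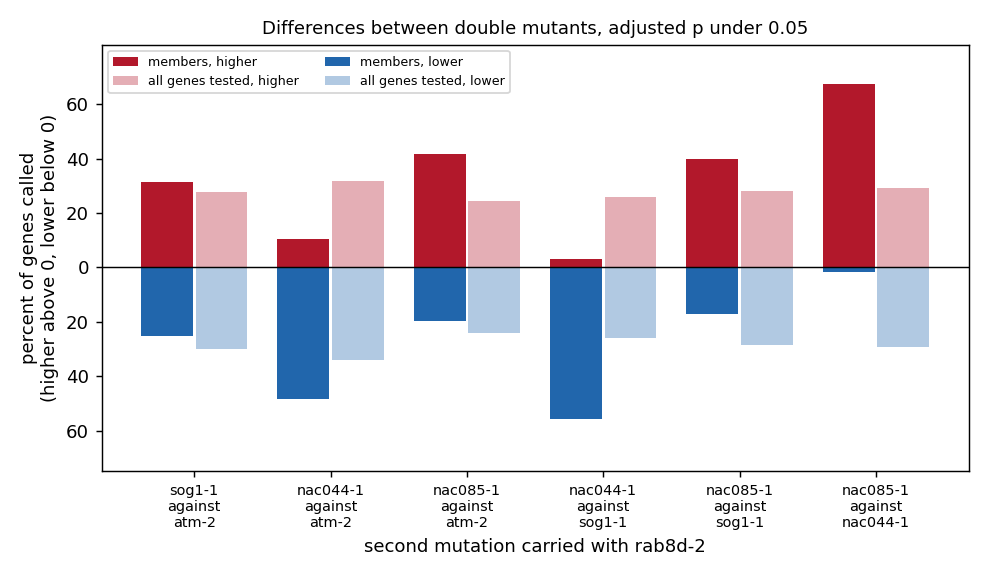
Percent of genes called at an adjusted p under 0.05 in each of the 6 comparisons between double mutants, higher calls above 0 and lower calls below it, for the members tested (dark) and for all genes tested (light). Of the 163 members tested, 79 were called lower and 17 higher in nac044-1 rab8d-2 against atm-2 rab8d-2, 91 lower and 5 higher against sog1-1 rab8d-2, and 110 higher and 3 lower in nac085-1 rab8d-2 against nac044-1 rab8d-2.

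Calls with a difference of at least 2-fold are given with the share of all genes tested that met the same limits. In sog1-1 rab8d-2 against atm-2 rab8d-2, 11 members were higher (5.76% of all genes) and 7 lower (2.29%). In nac044-1 rab8d-2 against atm-2 rab8d-2, 4 were higher (6.33%) and 23 lower (5.08%). In nac085-1 rab8d-2 against atm-2 rab8d-2, 10 were higher (2.06%) and 4 lower (1.36%). In nac044-1 rab8d-2 against sog1-1 rab8d-2, 1 was higher (1.19%) and 21 lower (3.28%). In nac085-1 rab8d-2 against sog1-1 rab8d-2, 11 were higher (2.62%) and 5 lower (4.72%), and in nac085-1 rab8d-2 against nac044-1 rab8d-2, 32 were higher (4.59%) and 1 lower (4.4%). The mechanosensitive channel gene MSL5 was among the largest, 5.8-fold higher in nac085-1 rab8d-2 than in nac044-1 rab8d-2 (difference on the log2 scale 2.53 ± 0.14, adjusted p = 4.03e-21). AT3G29630, a UDP-glycosyltransferase family gene, was 3.35-fold higher in nac085-1 rab8d-2 than in sog1-1 rab8d-2 (1.75 ± 0.10, adjusted p = 9.67e-20). The uncharacterized AT5G20790 was 4.63-fold lower in nac044-1 rab8d-2 than in atm-2 rab8d-2 (-2.21 ± 0.19, adjusted p = 2.52e-14). AT3G45490, annotated as reverse transcriptase-like, had 8, 7 and 10 estimated counts in nac044-1 rab8d-2 and 4, 1 and 6 in atm-2 rab8d-2. It had at least 10 in all 3 libraries of 1 double mutant only, and no test is given for it.

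Of the 163 members tested, 15 were called in all 6 comparisons (9.2%, beside 11.1% of all genes tested), 51 in 5 (31.3%, beside 22.9%), 34 in 4 (20.9%, beside 17.8%) and 28 in 3 (17.2%, beside 20.5%). In none of the 6 did 19 members pass the test (11.7%, beside 11.5%), among them BEE3, HB21, the squalene epoxidase gene SQE3, the IQ-domain genes IQD10 and IQD20 and the acyltransferase gene LPAT3. A difference that does not pass the test does not show that the levels were alike. SQE3, for example, averaged 8.95 ± 0.232 TPM in atm-2 rab8d-2, 8.48 ± 0.855 in sog1-1 rab8d-2, 8.85 ± 0.662 in nac044-1 rab8d-2 and 9.32 ± 0.732 in nac085-1 rab8d-2, against 5.64 ± 0.264 in rab8d-2 and 12.8 ± 0.462 in WT (SD, n = 3 each).

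The 8 members below the count filter rest on a handful of reads. AT1G54773 was listed at a mean of 54.1 TPM in WT and 0 in rab8d-2, from 4 estimated counts over the 3 WT libraries and 0 over those of rab8d-2, and it had 1, 1, 2 and 2 counts in the double mutants. AT1G62886, annotated as a subunit of the repair factor TFIIH, had 2.82 counts in WT and 0 in rab8d-2, and CRR42 had 3 and 0. AT1G50720, AT2G07722, AT2G42050, AT4G00883 and GRP19 had 14, 8, 8, 6 and 22 counts over the WT libraries. No fold is given for them at this depth.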

How the data were processed

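RNA of whole roots was sequenced in 18 libraries, 3 for each of 6 genotypes. The authors deposited a table of estimated counts, FPKM and TPM for each gene and library, made with RSEM 1.3.1 per the submitters' processing notes. The aligner, genome build, annotation and strand setting are not given in the sources used here. RSEM divides reads shared by similar genes by estimate, which makes values of loci with such reads uncertain. Membership was computed from the deposited TPM, with the deposited FPKM as an alternative.

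Counts were rounded to whole numbers, low genes were removed with filterByExpr, and 19981 genes were tested with edgeR 4.0.16 (quasi-likelihood, TMM, all 6 genotypes in 1 fit) in R 4.3.3, called at a Benjamini-Hochberg adjusted p under 0.05. DESeq2 1.42.0, upper quartile scaling, no filter, a replicate block and leaving out each library were alternatives. The test was run on simulated counts with the same spread for all genes, which does not cover a spread that varies by gene. Library totals of 20103600 to 20471200 counts limit the precision of genes with few counts.

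Members, lists and role groups were chosen with earlier results of these data known. Genes named are those with the lowest rab8d-2 ratio, the highest smallest return, the highest WT level, the 3 highest and 3 lowest called differences in each comparison, list and family members and the genes nearest each limit. Other members named under a role were chosen after their values were seen. Names come from the RefSeq TAIR10.1 table, which matched 25462 loci. The planned description of sequence features was not run.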

Additional observations from a re-analysis of the deposited data

How the results depend on the processing

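The number of members moved with the limits of the rule: 101 with a limit of 0.4 on rab8d-2 over WT, 259 and 83 with ratios of 1.2 and 1.5 to rab8d-2, and 80 with 1 TPM added in place of 0.1. Leaving out each library gave 160 to 175 members. The median percent of WT was 69.7% in atm-2 rab8d-2 and 58.7% in nac044-1 rab8d-2 from TMM-scaled CPM, and 82.4% from that CPM and 83.8% from FPKM in nac085-1 rab8d-2. Without each library it was 70.5% to 72.6% in atm-2 rab8d-2, 71.3% to 74.1% in sog1-1 rab8d-2, 58.9% to 60.9% in nac044-1 rab8d-2 and 83.9% to 86.5% in nac085-1 rab8d-2. Members called between double mutants were within 1.5 times the number given under each alternative run. Without each library they were 85 to 93 in sog1-1 against atm-2, 92 to 98 in nac044-1 against atm-2, 88 to 101 in nac085-1 against atm-2, 91 to 98 in nac044-1 against sog1-1, 86 to 94 in nac085-1 against sog1-1 and 104 to 115 in nac085-1 against nac044-1. With a replicate block they were 92, 96, 99, 96, 93 and 114 in that order. Libraries with the same number did not deviate together (median correlation 0.00141 over 45 pairs), and 4 of 18 correlated best with their own number, so the numbers were not taken as pairs. The call of LSU1 (AT3G49580) in nac085-1 against nac044-1 was lost with DESeq2 (adjusted p = 0.13). It was also lost by edgeR without nac044-1 rab8d-2 replicate 3 or nac085-1 rab8d-2 replicate 1 or 2 (adjusted p = 0.073, 0.0968 and 0.0583). The cause was not tested. The planned motif and sequence description was not run. Genes of few counts are limited by depth.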
